A study of Mus musculus with 2 samples.

Results

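The cluster of miR-465, miR-741, miR-743 and miR-880 is a set of mouse miRNAs encoded on the X chromosome and known mainly from the testis and the male tract. Its members were taken by name: every probe for miR-201, miR-463, miR-465a to miR-465d, miR-470, miR-471, miR-509, miR-547, miR-741, miR-742, miR-743a, miR-743b, miR-871, miR-878, miR-880, miR-881, miR-883a or miR-883b, on either arm. This gave 38 of the 1900 miRNA probes, 20 for 5p arms and 18 for 3p arms, and 1 of them carries the names of miR-465a-3p, miR-465b-3p and miR-465c-3p together. The cluster was chosen by the intensities of these arrays, after several of its miRNAs had been seen to be brighter with high-fat diet. The values below are therefore a description, and no test was made on them.

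RNA came from epididymal adipose tissue, the fat pad beside the epididymis, of male C57BL/6J mice, a wild-type inbred strain. Per the labels, feeding began at 8 weeks of age and ran for 8 weeks, with 5% fat in the normal diet and 60% of energy from fat in the high-fat diet. Each diet is represented by 1 single-colour 3D-Gene array, so no difference has a replicate check, and the number of arrays limits the precision of every value. The number of animals behind an array is not in the labels, and diet cannot be told apart from array position (1 and 2 of a slide).

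A miRNA precursor is a hairpin transcript from which the enzyme Dicer cuts a duplex. One strand, the 5p or the 3p arm, is usually kept in the silencing complex, where bases 2 to 8, the seed, pair with target mRNAs. The cluster is a fast-evolving group near Fmr1 on the X chromosome, and in mice many of its miRNAs are made in germ cells or Sertoli cells of the testis. It is not among the miRNAs known as characteristic of fat cells.

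RefSeq (GRCm38.p6) places 22 hairpins for these miRNAs, all on the minus strand of chromosome X, and no gene of its table spans any of them. Of these, 19 lie within 62.4 kb (chrX:66776757-66839125), from Mir743 to Mir465. The other 3, Mir201, Mir547 and Mir509, lie at chrX:67988096-68010179, beyond a gap of 1149 kb, and the nearest protein-coding gene after them is Fmr1 (chrX:68678536-68717963). All 38 probes matched a RefSeq mature miRNA by name.

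The mature sequences of the members that the results turn on are shown 5′ to 3′, with the seed in capitals. They are the 13 members with a net signal above 50 scanner units on the high-fat array, the members that share a seed, and miR-742-3p, whose seed is a base away from that of miR-743a-3p.
miR-743a-3p: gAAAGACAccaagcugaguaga
miR-743b-3p: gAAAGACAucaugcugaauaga
miR-742-3p: gAAAGCCAccaugcuggguaaa
miR-741-3p: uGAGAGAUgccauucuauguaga
miR-880-3p: uACUCCAUccucucugaguaga
miR-883a-3p: uAACUGCAacagcucucaguau
miR-883b-3p: uAACUGCAacaucucucaguau
miR-871-5p: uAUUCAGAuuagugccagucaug
miR-743a-5p: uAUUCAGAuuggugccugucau
miR-465a-5p: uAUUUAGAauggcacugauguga
miR-465b-5p: uAUUUAGAauggugcugaucug
miR-465c-5p: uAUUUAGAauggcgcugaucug
miR-465d-5p: uAUUUAGAaugguacugauguga
miR-465a/b/c-3p: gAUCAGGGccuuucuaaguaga
miR-470-5p: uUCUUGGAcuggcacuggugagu
miR-878-3p: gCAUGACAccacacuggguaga
miR-201-5p: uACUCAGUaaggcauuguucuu
miR-547-3p: cUUGGUACaucuuugagugag

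The 38 probes hold 32 different seeds, and only 4 seeds are shared between probes. These are the seed of miR-465a-5p, miR-465b-5p, miR-465c-5p and miR-465d-5p, that of miR-743a-3p and miR-743b-3p, that of miR-883a-3p and miR-883b-3p, and that of miR-743a-5p and miR-871-5p. Outside the cluster, 1 of the 32 seeds occurs in another RefSeq mouse miRNA: miR-743b-5p shares its seed with miR-6948-5p. The sequences are poorer in G and C than those of the other probes, with a median of 40.9% against 52.4% over 1577 other probes with a RefSeq sequence. A 5p arm begins with U in 18 of 20 members (90%), against 39.6% of 647 other 5p arms. A 3p arm ends with AGA in 8 of 18 members (44.4%), against 1.52% of 658 other 3p arms, an ending chosen for counting after the sequences had been read.

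On the normal-diet array the cluster could scarcely be told from empty spots, and on the high-fat array most of it stood clear of them. The net signal is the spot intensity minus the trimmed mean of the array's 896 blank spots, in scanner units. Over all 38 probes its median was -1.16 on normal diet and 34.3 on high-fat diet, with quartiles of -2.41 and 0.833 against 10.02 and 60.4. Probes differ in how well they capture their targets, so net signals are read against the blanks and between the arrays, not as amounts of a miRNA against another. On normal diet 25 probes lay below the blank mean, and on high-fat diet 4 did. The net signal was higher on high-fat diet for 36 of 38 probes, where 70% of all 1900 probes were higher. It was higher by over 10 units for 27 of them (71.1%), against 16.4% of all probes. Summed over the cluster it was -8.68 on normal diet and 1452 on high-fat diet. With only positive net signals counted, the cluster made up 0.0135% and 0.505% of the net signal of all miRNA probes. In RNA from whole tissue, a change in the number of cells of a type cannot be told apart from a change in RNA per cell.

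**Figure D1:**
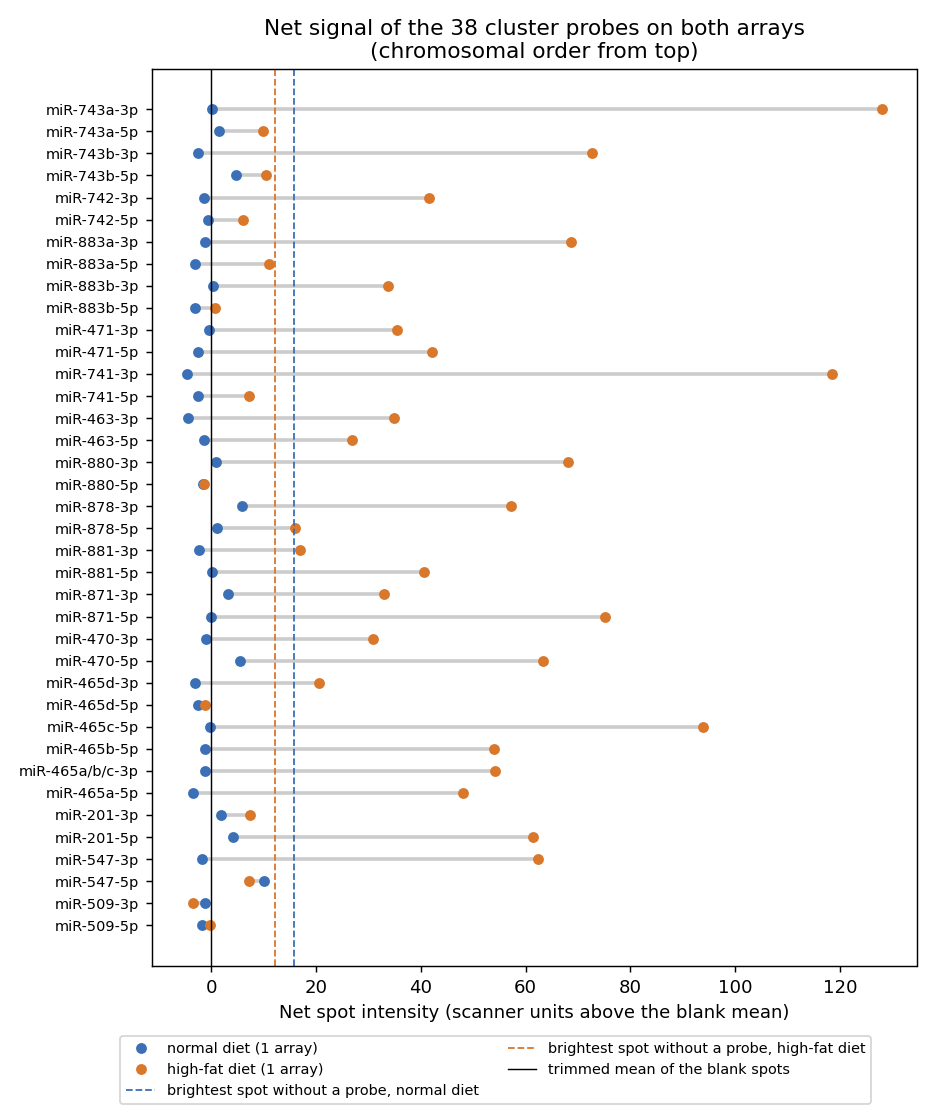
Net spot intensity above the blank mean (x axis, scanner units) of the 38 cluster probes in chromosomal order (y axis), with 1 point per array, blue for normal diet and orange for high-fat diet. All 38 normal-diet points lie left of the blue dashed line, the brightest spot without a probe, and 26 high-fat points lie right of the orange one.

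A probe was counted as detected above the blank mean plus 2 SD (a spot intensity of 77.5 for normal diet and 70.8 for high-fat diet). On normal diet 6 of 38 members were detected, against 72.1% of all miRNA probes. On high-fat diet 33 were detected, against 79.5% of all probes. The 6 were detected under both diets, another 27 with high-fat diet only, and 5 under neither. Detection with normal diet only was seen for 0 members and for 1.63% of all probes. Detection with high-fat diet only was the state of 9% of all probes, 171 in number, so the cluster makes up 15.8% of that list and 2% of the probes. The lowest detected member was miR-871-3p on normal diet, at 78.9, just above miR-201-3p at 77.5, and miR-742-5p on high-fat diet, at 75.4, above miR-883b-5p at 70.0.

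That limit is lenient, because 156 of the 174 spots with no probe also passed it for normal diet and 164 for high-fat diet. The brightest of these spots lay 15.9 and 12.2 units above the blank mean. No cluster member exceeded it on normal diet (0 of 38, against 31.2% of all probes), and 26 did on high-fat diet (68.4%, against 47% of all probes). All 26 were therefore above it on high-fat diet only, a state shared by 16% of all probes. The scanner's local background at these 26 spots had a median of 65.4 on normal diet and 92.04 on high-fat diet, against 64.4 and 63.01 at the blank spots, and its part in their signal was not tested. For 75 spots touching a cluster member in a row or column, the median net signal was 4.78 (normal diet) and 6.62 (high-fat diet). Of these, 12 (16%) were higher by over 10 units on high-fat diet, against 15.3% of all other miRNA probes. The 26 lay in 14 of the 32 printed blocks, with at most 5 in a block.

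Differences on a log2 scale come from values corrected with limma's normexp method (offset 50) and quantile scaling, with high-fat diet above normal diet as positive. For a member not detected on normal diet only a bound can be given, against the higher of its own value and the dimmest detected probe of that array (56.7). Of the 33 members detected on the high-fat array, 7 were at least 2-fold higher, against 1.69% of the 1541 probes detected on an array. All 7 rest on a bound. The bounds of the 27 members detected on high-fat diet only ran from 1.04-fold to 3.06-fold, with a median of 1.58-fold. The 6 members detected on both arrays had a median log2 difference of 0.63, with 5 higher and 1 lower, against -0.04 over the 1339 probes detected on both arrays, and 0 of them passed 2-fold (1.27% of those probes did). These counts move with the processing: 21 members were at least 2-fold higher with an offset of 16, 31 with the blank mean subtracted and neither normexp nor an offset, and 0 with the local background column in place of the blank mean. Each fold given below as at least a value is a bound under the reported processing only. For miR-743a-3p it was 3.06-fold there, 1.16-fold with the local background and 60.5-fold with only the blank mean subtracted.

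**Figure D2:**
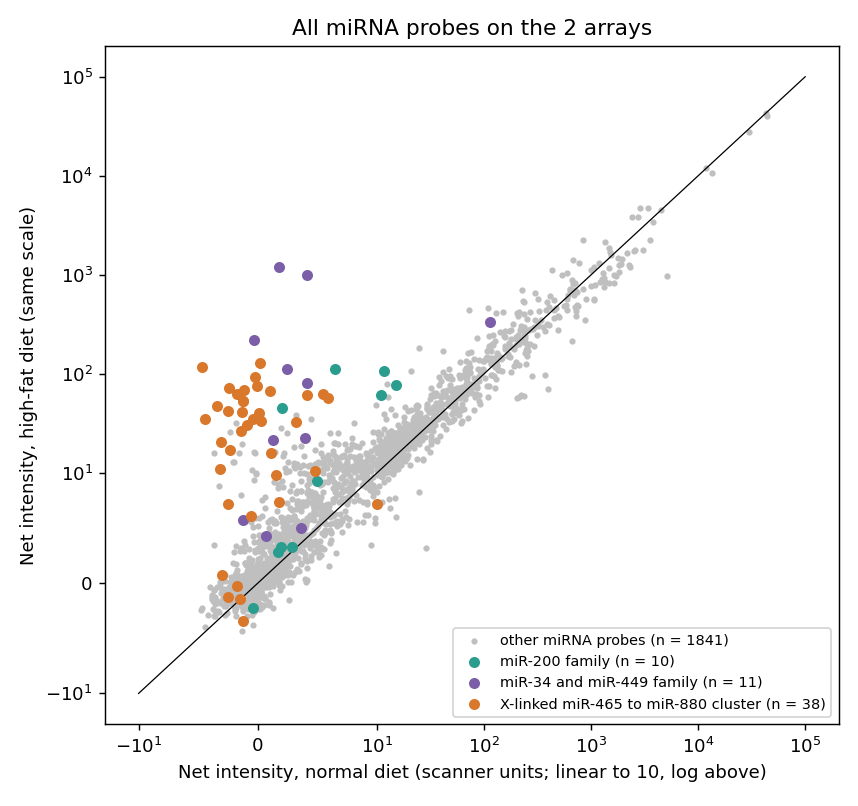
Net intensity of all 1900 miRNA probes on the normal-diet array (x axis) and the high-fat array (y axis), linear up to 10 scanner units and logarithmic above, with the line of equal values. The cluster probes (orange) stand near 0 on the x axis and reach up to 128 on the y axis.

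At the end of the cluster farthest from Fmr1 lie miR-743a, miR-743b, miR-742, miR-883a and miR-883b, and here the 3p arms carried the signal. miR-743a-3p, which has been reported to target the mitochondrial malate dehydrogenase Mdh2 in mouse cells, had the highest net signal of the cluster with high-fat diet, 128, and 0.187 with normal diet. Its normalised intensity was 54.8 and 173, at least 3.06-fold higher on high-fat diet. miR-743b-3p had a net signal of -2.44 and 72.6, at least 2.13-fold higher. It has the same seed and differs from miR-743a-3p at 3 positions (C9U, A12U and G18A, counted from 1 at the 5′ end), so cross-reaction and separate signals cannot be told apart. miR-742-3p, whose seed differs from theirs by A6C, had a net signal of -1.29 and 41.6, at least 1.59-fold higher. The 5p arms of these 3 miRNAs were dim on high-fat diet, at 9.84 for miR-743a-5p, 10.5 for miR-743b-5p and 6.12 for miR-742-5p, all below the brightest spot without a probe. Only miR-743b-5p of them was detected on normal diet, at 4.79, and its log2 difference was 0.05.

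The pair miR-883a and miR-883b also gave signal from the 3p arms. miR-883a-3p stood at -1.12 with normal diet and 68.7 with high-fat diet, at least 2.07-fold higher, and miR-883b-3p 0.309 and 33.7, at least 1.47-fold higher. Their RefSeq sequences differ by a single base, G12U. miR-883a-5p stood at -3.17 and 11.0. miR-883b-5p was detected on neither array, at -2.999 and 0.763.

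In the middle of the cluster lie miR-471, miR-741, miR-463, miR-880, miR-878 and miR-881. miR-741-3p had a net signal of -4.71 with normal diet and 118 with high-fat diet, at least 2.94-fold higher. Its other arm, miR-741-5p, stood at -2.50 and 7.18. miR-880-3p had a net signal of 1.01 and 68.2, at least 2.05-fold higher, while miR-880-5p was detected on neither array (-1.50 and -1.38). For these precursors, too, only the 3p probe rose above the spots without a probe.

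The other 4 precursors of this stretch gave signal from both arms on the high-fat array. miR-471-5p, known in mouse Sertoli cells as a regulator of the clearance of dying germ cells, had a net signal of -2.47 with normal diet and 42.1 with high-fat diet, and miR-471-3p -0.384 and 35.4. miR-463-3p stood at -4.39 and 34.9, and miR-463-5p at -1.42 and 26.9. For all 4 of these probes the difference is a bound, from at least 1.36-fold for miR-463-5p to at least 1.60-fold for miR-471-5p. miR-878-3p was detected on both arrays, at 5.95 and 57.2 (log2 difference 0.75), and miR-878-5p on high-fat diet only, at 1.16 and 16.04. miR-881-5p stood at 0.104 and 40.7 and miR-881-3p at -2.31 and 16.99, with bounds of 1.58-fold and 1.21-fold.

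Next along the chromosome come miR-871 and miR-470, again with signal from both arms. miR-871-5p had a net signal of -0.0767 with normal diet and 75.2 with high-fat diet, at least 2.17-fold higher, and miR-871-3p 3.27 and 33.0 (log2 difference 0.50). miR-871-5p shares its seed with miR-743a-5p and differs from it by G11A and U17A over their common length, while miR-743a-5p stood at 1.53 and 9.84. miR-470-5p, reported in mouse embryonic stem cells to target the pluripotency factor genes Nanog and Pou5f1, had a net signal of 5.52 and 63.4 (log2 difference 0.87). miR-470-3p stood at -0.916 and 30.9, at least 1.43-fold higher.

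The miR-465 family occupies the end of the dense stretch nearest Fmr1 with 6 hairpins, Mir465d, Mir465c-1, Mir465b-1, Mir465c-2, Mir465b-2 and Mir465. miR-465c-5p had a net signal of -0.199 with normal diet and 93.8 with high-fat diet, at least 2.42-fold higher. miR-465b-5p stood at -1.24 and 54.0 and miR-465a-5p at -3.38 and 48.1, at least 1.77-fold and 1.69-fold higher. The probe shared by the 3p arms of miR-465a, miR-465b and miR-465c stood at -1.26 and 54.1, at least 1.78-fold higher. Only their sum can be read from it, since RefSeq gives these 3 arms the same sequence.

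The 5p arm of miR-465d gave no signal. miR-465d-5p was detected on neither array, at -2.52 and -1.25, although it has the family's seed and differs from miR-465a-5p at C13U alone. miR-465d-3p stood at -3.07 on normal diet and 20.6 on high-fat diet, at least 1.27-fold higher. The 4 5p probes therefore gave unequal readings from near-identical sequences, of which miR-465b-5p and miR-465c-5p differ at U13C alone. The sequences of the probes themselves were not used here, and the share of cross-reaction in the 3 that gave signal was not tested.

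**Figure D3:**
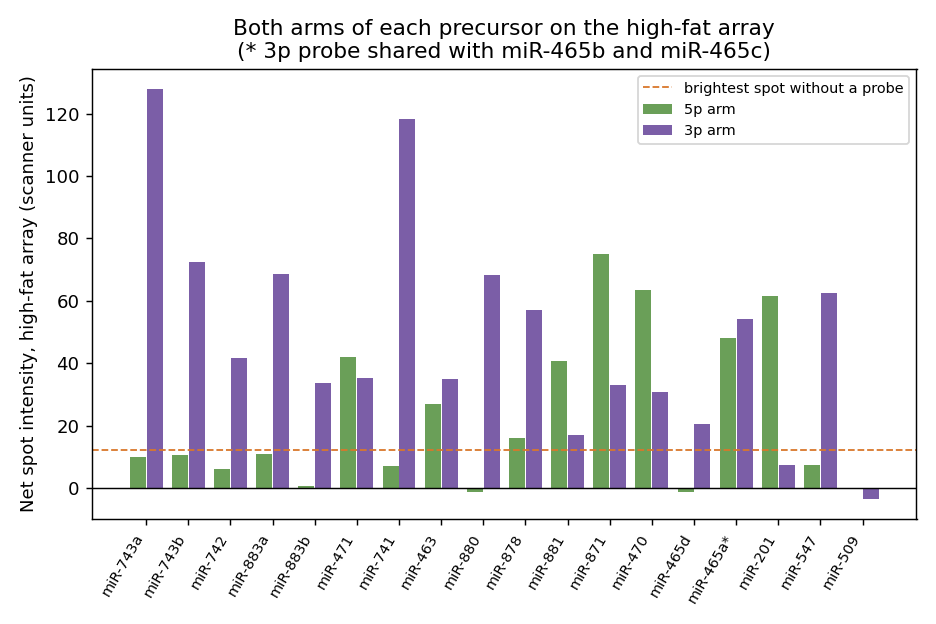
Net intensity on the high-fat array (y axis, scanner units, bars from 0) of the 5p arm (green) and the 3p arm (purple) of each precursor (x axis, chromosomal order), 1 spot per bar. The 3p bar alone passes the dashed line, the brightest spot without a probe, for 9 of the 17 precursors with a probe for each arm alone, both bars for 6, and the 5p bar alone for miR-201. Both bars also pass for miR-465a, which is drawn but not counted, since its 3p probe is shared with miR-465b and miR-465c.

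The 3 distant hairpins differed among themselves. miR-201-5p was detected on both arrays, at 4.13 on normal diet and 61.5 on high-fat diet (log2 difference 0.89), while miR-201-3p stood at 1.81 and 7.34. miR-547-3p stood at -1.75 and 62.4, at least 1.96-fold higher. miR-547-5p went the other way: it stood at 10.1 with normal diet and 7.196 with high-fat diet (log2 difference -0.15, or 0.23 with scaling to the spike controls). miR-509 was detected on neither array in either arm, with miR-509-5p at -1.72 and -0.258 and miR-509-3p at -1.20 and -3.42. Over all 6 probes of this stretch the median net signal was 0.303 and 7.27, against -1.18 and 35.2 over the 32 probes of the dense stretch. Of the 6, 2 passed the brightest spot without a probe on the high-fat array, and of the 32, 24 did.

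By arm, 4 of 20 5p probes and 2 of 18 3p probes were detected on normal diet, against 72.1% of all probes. On high-fat diet 16 and 17 were detected, against 79.5% of all probes. The arms parted at the stricter limit: 10 of 20 5p probes and 16 of 18 3p probes exceeded the brightest spot without a probe on high-fat diet. Of all probes 47% did, so the 5p count lay near the share of all probes. On normal diet 0 of either arm exceeded it, against 31.2% of all probes. Median net signals were -0.888 and 13.5 for 5p arms, and -1.16 and 38.5 for 3p arms, on normal and high-fat diet. Of the 7 members at least 2-fold higher, 5 were 3p arms (miR-743a-3p, miR-741-3p, miR-743b-3p, miR-883a-3p and miR-880-3p) and 2 were 5p arms (miR-465c-5p and miR-871-5p). Of the 1541 probes detected on an array, 1.69% were at least 2-fold higher. Among the 17 precursors with a probe for each arm alone, 9 passed the stricter limit on high-fat diet by the 3p arm only, 6 by both, 1 (miR-201) by the 5p arm only, and 1 (miR-509) by neither. Different probes capture their targets with different efficiency, so these counts do not measure how much of each arm was present.

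The authors' deposited table, which lists a value only for detected probes, has a value on both arrays for 6 members. For miR-878-3p, miR-470-5p, miR-201-5p and miR-871-3p the authors' deposited table gives 11.1, 10.3, 7.68 and 6.07 on normal diet, and 88.96, 98.6, 95.7 and 51.3 on high-fat diet. For miR-743b-5p the authors' deposited table gives 8.91 and 16.4, and for miR-547-5p, the only one of the 6 that was lower on high-fat diet, 18.8 and 11.2. For miR-743a-3p, miR-741-3p and miR-465c-5p the authors' deposited table has no value on normal diet and 199, 184 and 146 on high-fat diet.

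The median log2 difference of other X-linked miRNAs was close to that of all probes. Of 61 other X-linked probes, from a list of known X-linked miRNAs and kept where RefSeq places them on X only, 44 were detected on normal diet and 43 on high-fat diet. Of all probes 72.1% and 79.5% were. The median log2 difference of the 40 detected on both was -0.08, against -0.04 over the 1339 probes detected on both arrays. Of the 61, 0 were at least 2-fold higher, against 1.69% of the 1541 probes detected on an array. Detection on high-fat diet only was the state of 3 (4.92%), against 9% of all probes and 71.1% of the cluster. The X-linked values ran from -0.89 for miR-223-3p, a myeloid miRNA, to 0.56 for miR-20b-5p. With 1 array per diet this contrast has no test.

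The miR-34 and miR-449 family, typical of ciliated epithelium and of testis, was also brighter with high-fat diet. All 11 of its probes were detected on high-fat diet and 6 on normal diet, against 79.5% and 72.1% of all probes. Of the 11, 6 were at least 2-fold higher, against 1.69% of the 1541 probes detected on an array. The family's median net signal was 2.47 on normal diet and 81.9 on high-fat diet. The highest value of the family was that of miR-34b-5p, which reached 1198 on high-fat diet from 1.81, at least 24.4-fold higher. Its lowest difference was that of miR-449a-3p, at 3.62 and 5.00 (log2 difference -0.02). In the miR-200 family, found mostly in epithelia, 8 of 10 probes were detected with normal diet and 9 on high-fat diet. These counts lay near the shares of all probes (72.1% and 79.5%). The miR-200 family had a median net signal of 3.92 and 27.4. Its highest difference was that of miR-200a-3p, 6.48 and 112 (log2 difference 1.35), and its lowest that of miR-200a-5p, 2.89 and 3.34 (-0.03). Of its 10 probes, 2 were at least 2-fold higher, against 1.69% of the 1541 probes detected on an array. On high-fat diet 5 of the 10 passed the brightest spot without a probe, near the 47% of all probes.

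**Figure D4:**
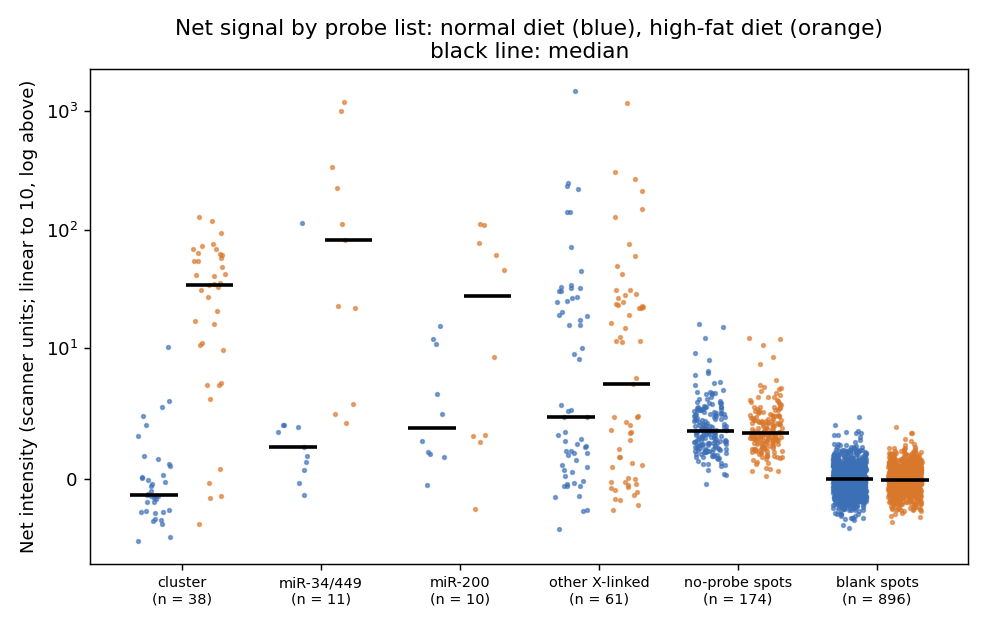
Net intensity (y axis, linear up to 10 scanner units and logarithmic above) of the cluster, 3 other miRNA lists, the 174 spots without a probe and the 896 blank spots (x axis), blue for normal diet and orange for high-fat diet, 1 point per spot and a black line at the median. The cluster's median moves from -1.16 to 34.3, while that of the other X-linked probes moves from 4.76 to 7.28.

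Markers of testis and of epithelium were brighter with high-fat diet, as the cluster was, and their part in its difference was not tested. Of the 8 testis and sperm markers 4 are cluster members, whose direction the choice of the cluster fixed. The other 4, miR-34b-5p, miR-34c-5p, miR-449a-5p and miR-202-5p, were all detected with high-fat diet and 1 (miR-34c-5p) with normal diet. All but miR-202-5p belong to the miR-34 and miR-449 family described above. The marker lists, too, were drawn up with earlier results of these data known. The summed net signal of these 4 was 3.36 for normal diet and 2455 for high-fat diet. Most of the latter came from miR-34b-5p (1198) and miR-34c-5p (1008). The gonadal miRNA miR-202-5p stood at -2.32 and 25.9. All 5 epithelial markers were detected on both arrays, with a summed net signal of 46.5 on normal diet and 404 on high-fat diet. They are the 3p arms of the miR-200 family described above, so they add no separate list. They are also the 5 of its 10 probes that passed the brightest spot without a probe on high-fat diet. The 6 markers of fat tissue were detected on both arrays, as the tissue label has it, and their sum was 6782 on normal diet and 3353 on high-fat diet. The 5 blood markers, all detected on both arrays, summed to 6151 and 1356, mostly from miR-451a (5106 and 977). Such sums follow the brightest probes and do not measure an amount of tissue. The hepatocyte miRNA miR-122-5p stood at 2.01 and 1.14, and the 3 muscle markers summed to 37.3 and 49.7. The 2 spike controls were lower with high-fat diet, by a mean log2 difference in net signal of -0.32 and -0.33 over 8 spots each. The SD of that difference across those spots, 0.12 and 0.178, is its spread over repeated spots of this pair of arrays. It was taken at bright signal, with median net signals of 7163 on normal diet and 5818 on high-fat diet. It covers neither probes near the blanks nor differences between samples.

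**Figure D5:**
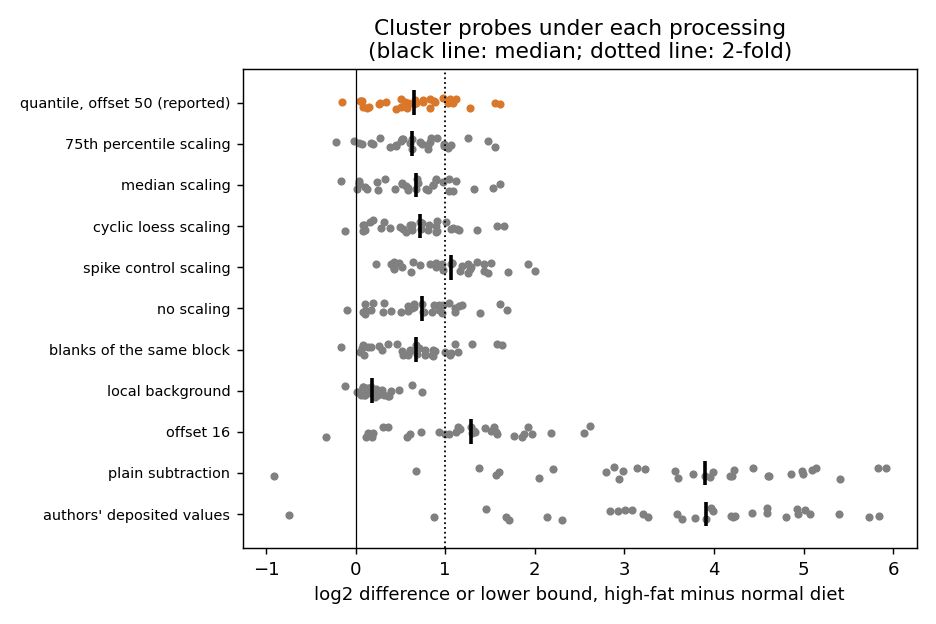
log2 difference or lower bound (x axis) of the cluster probes under each processing (y axis), 1 point per probe, with a black line at the median and a dotted line at 2-fold. The median lies at 0.66 as reported and at 3.90 by plain subtraction, each over 33 probes. With the local background it lies at 0.19 over 25 probes, since 8 bounds under 1-fold are left out.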

How the data were processed

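The 2 arrays were read from the scanner output. Per the file headers, the deposited spot and background intensities are medians at 1 wavelength, merged over several scanner gains by least squares. The extraction text in the labels speaks of cells where the sample label is tissue. The authors' deposited intensity table equals the spot minus the trimmed blank mean, times 1.86 (normal diet) or 1.56 (high-fat diet), with a largest deviation of 3.14e-06. For all 1900 probes it holds a value exactly where the spot exceeded the trimmed mean plus 2 SD of the blanks.

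Blank spots were trimmed by 5% at each end. Spot intensities were corrected with normexp in limma 3.58.1 (R 4.3.3), with the blank mean as background and an offset of 50, quantile-scaled over 1900 probes and converted to log2. The deposited values are not log2. Scripts ran in Python 3.11.15 and were tested on simulated data. Mature sequences came from RefSeq (GRCm38.p6).

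Groups are the diets of the labels. With 1 array per diet no test was made. All members detected on an array are named. Members and lists were chosen with earlier results of these data known. Of the 72 probes named in the X-linked list, 11 that RefSeq does not place on X alone were left out. Alternatives were other scalings, offsets, backgrounds and detection limits.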

Additional observations from a re-analysis of the deposited data

Results flagged for a closer look

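Spots without a probe entered no comparison between diets, yet most lay above the blank limit: 156 of 174 with normal diet and 164 with high-fat diet, against 54 and 48 of the 896 blank spots. Their median net signal was 3.70 and 3.52. A signal of a few units above the blanks is thus not particular to a miRNA probe, which touches the 6 members detected on normal diet, all at 10.1 or below.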

How the results depend on the processing

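No paired analysis was possible because each diet has 1 array. Detection counts of the cluster were within 1.5 times the reported ones under 3 SD, untrimmed blanks, the 95th percentile of the blanks and the blanks of the same block. Above the brightest spot without a probe, a limit chosen after the data were seen, 0 members were detected on normal diet, 10 5p arms on high-fat diet, and 2 members were at least 2-fold higher. The median log2 difference of the members detected on both arrays was 1.05 with spike control scaling, 1.16 with offset 16, 2.96 by plain subtraction, 0.13 with the local background and 3.04 in the authors' deposited values. The count of members at least 2-fold higher was 17, 21, 31, 0 and 31 in the same order. Over 26 members the excess of the local background over that of the blanks was a median of 0.642 of the net signal, and the cause was not tested. The median net signal on the high-fat array was 35.1 with the blanks of the same block and 63.3 in the authors' deposited values, which cover 33 members and are scaled. They cover 6 members for normal diet, so no such median was taken there. Of single members, miR-743b-5p turned to -0.0156 with 75th percentile scaling and miR-547-5p to 0.23 with spike control scaling. Of the members with a value, 32 of 33 were above 0 as reported, 33 of 33 with spike control scaling, 28 of 30 with 75th percentile scaling and 24 of 25 with the local background. The 3 and 8 without a value there had a bound under 1-fold, for which none is given. The 27 members detected on high-fat diet only therefore could not count as below 0. Only the 6 detected on both arrays could, so these counts do not measure agreement between processings. Members within a few units of the blanks have no readable order.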
